A study of Mus musculus with 24 samples.

Results

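The 8 genes described here, Slco1a1, Slco1a4, Slco1a5, Slco1a6, Slco1b2, Slco1c1, Slco2a1 and Slco2b1, encode organic anion transporting polypeptides, and they were followed through 4 lists of H3K27ac peaks from mouse liver. H3K27ac is the histone mark of active promoters and enhancers. The genes were chosen by name from the 22350 protein-coding genes of the autosomes and the X chromosome. Every peak that overlapped a gene body or the 10 kb on either side of it (build mm9) was taken. The 8 windows held 56 of the 79862 peaks of the male B6 list, 58 of 82181 in female B6, 56 of 90228 in male CAST and 57 of 84645 in female CAST. Peaks of the 4 lists that overlapped by at least 1 bp were joined, which gave 82 regions at the 8 genes and 119348 regions in all. A peak or region was called promoter when it lay within 2.5 kb of an annotated transcript start of its gene, and distal otherwise.

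The livers came from male and female mice of 2 inbred strains, C57BL/6J (B6) and the wild-derived CAST/EiJ (CAST), labelled as 8 weeks old. No treatment, transgene or mutation was named. Each of the 4 groups had 5 H3K27ac libraries from 5 livers and 1 input library, 24 samples together, but the 5 livers of a group were merged into 1 peak list. No value below therefore has a spread between livers behind it, and no difference between lists could be tested against such a spread. The strain field of the labels called all females CAST/EiJ and all males C57BL/6J, against the titles of the female B6 and male CAST samples, and the groups here follow the titles.

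The tissue was whole liver, so fewer cells of a type and less mark per cell cannot be told apart. Among 6 hepatocyte markers, 5 had a peak within 1 kb of a transcript start in all 4 lists, with Serpina1a the exception. Among 4 markers of sinusoidal endothelial cells 3 were marked in each list (Lyve1 was not), and 2 of 4 stellate and 2 of 4 cholangiocyte markers were marked in each list. None of the 4 Kupffer cell markers was marked in male B6, male CAST or female CAST, and 1 (Clec4f) was marked in female B6.

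Organic anion transporting polypeptides are membrane carriers that bring bile acids, steroid conjugates, thyroid hormones, prostaglandins and many drugs into cells. In hepatocytes they sit mainly on the basolateral membrane, facing the sinusoidal blood. Slco1b2 is the main liver-specific member of the mouse and carries bile acids, bilirubin conjugates and statins. Slco1a1 is known as a male-predominant and Slco1a4 as a female-predominant gene of the mouse liver, under the control of growth hormone and its signalling factor STAT5. Slco2b1 carries steroid sulfates and drugs and is broadly expressed, Slco2a1 is the prostaglandin transporter, best known from endothelium, and Slco1c1 is a thyroxine transporter of brain capillaries.

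Of these genes 6 lie in a cluster on mouse chromosome 6. Slco1c1 (chr6:141472907-141518241) and Slco1b2 (chr6:141578039-141635167) are read from the plus strand. Slco1a4 (chr6:141753961-141804720), Slco1a1 (chr6:141855803-141895483), Slco1a6 (chr6:142034282-142157042) and Slco1a5 (chr6:142182748-142271501) follow on the minus strand. Slco2b1 lies at chr7:106806314-106859850 on the minus strand and Slco2a1 at chr9:102910817-102990179 on the plus strand. The windows of the 8 genes did not share a region.

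Sequences of the mm9 reference are shown where the results below turn on them. The first 4 runs are the 200 bases upstream of 1 annotated start of each gene, the one furthest upstream within the region over a start that ranked highest by mean score percentile over the lists, written on the strand of the gene (Slco1a1 chr6:141895484-141895683, Slco1a4 chr6:141804721-141804920, Slco1b2 chr6:141577839-141578038, Slco2b1 chr7:106844320-106844519). The next 3 are the central 200 bases of distal or upstream regions on the plus strand: a region 0.824 kb upstream of Slco1a1 (chr6:141896540-141896739), the region downstream of Slco1c1 with the most unequal signal between the sexes of B6 among regions called in all 4 lists (chr6:141525126-141525325), and the single region at Slco1a5 (chr6:142278937-142279136). Capitals mark matches to a motif of a liver transcription factor.
Slco1a1 upstream: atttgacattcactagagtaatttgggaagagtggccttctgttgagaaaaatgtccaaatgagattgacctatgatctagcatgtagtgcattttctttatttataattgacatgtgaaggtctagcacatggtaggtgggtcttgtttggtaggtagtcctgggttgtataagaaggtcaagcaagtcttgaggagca
Slco1a4 upstream: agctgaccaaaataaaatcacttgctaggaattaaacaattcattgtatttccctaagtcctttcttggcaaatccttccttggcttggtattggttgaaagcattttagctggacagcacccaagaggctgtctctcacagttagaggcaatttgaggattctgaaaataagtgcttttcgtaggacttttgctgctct
Slco1b2 upstream: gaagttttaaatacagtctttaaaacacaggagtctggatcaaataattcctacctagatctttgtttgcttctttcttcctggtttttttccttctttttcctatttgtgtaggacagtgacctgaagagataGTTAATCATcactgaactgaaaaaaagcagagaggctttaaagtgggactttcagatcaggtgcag
Slco2b1 upstream: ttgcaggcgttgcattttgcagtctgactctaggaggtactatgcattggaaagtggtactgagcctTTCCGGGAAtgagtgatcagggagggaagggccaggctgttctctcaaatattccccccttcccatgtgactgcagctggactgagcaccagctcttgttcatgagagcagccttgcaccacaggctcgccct
Slco1a1 upstream region: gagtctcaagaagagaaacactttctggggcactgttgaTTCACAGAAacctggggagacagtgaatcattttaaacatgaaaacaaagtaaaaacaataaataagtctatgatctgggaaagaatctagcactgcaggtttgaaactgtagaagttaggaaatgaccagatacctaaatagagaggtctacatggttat
Slco1c1 downstream region: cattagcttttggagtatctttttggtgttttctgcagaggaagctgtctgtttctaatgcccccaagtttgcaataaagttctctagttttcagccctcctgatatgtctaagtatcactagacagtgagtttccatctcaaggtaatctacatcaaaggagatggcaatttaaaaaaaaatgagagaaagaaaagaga
Slco1a5 upstream region: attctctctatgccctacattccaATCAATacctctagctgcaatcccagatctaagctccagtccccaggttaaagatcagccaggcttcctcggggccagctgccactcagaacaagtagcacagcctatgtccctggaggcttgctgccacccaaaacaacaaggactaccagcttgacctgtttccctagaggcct

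The motifs searched, on both strands, were STAT5 (TTCNNNGAA), the HNF6 and CUX2 core (ATCGAT or ATCAAT), an HNF1 site (GTTAATNAT), HNF4 (CAAAGTCCA), C/EBP (TTGCGCAA) and AGGTCA repeated in the same direction with 4 or 3 bases between. The ATCAAT form shares its first letters with ATCGAT, and no match to one motif overlapped a match to another in the runs shown. Upstream of Slco1b2 an HNF1 motif began 66 bases before the start, a motif held by 0.550% of the 22350 upstream runs of the same length. Upstream of Slco2b1 a STAT5 motif began 133 bases before the start, and 5.49% of upstream runs hold one. No motif of the set was found in the 200 bases upstream of Slco1a1 or Slco1a4. The center of the Slco1a1 upstream region held a STAT5 motif. Over the centers of all 82 regions, 10 (12.2%) held a STAT5 motif against 6.21% of all 119348 region centers, and 8 (9.76%) held ATCAAT against 6.28%. These are matches of letters, without a test.

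The strength of a peak was read in 3 ways. The deposited fold enrichment divides the height of the peak by the local background that the peak caller assigned. The height at the summit, in overlapping DNA fragments, and the local background were solved for each peak from its p-value and fold enrichment. Between 99.97% and 99.99% of the solved heights came out as whole numbers within 0.05. The most frequent local background of a list, its genome-wide level, was 18.4 fragments in male B6, 18.7 in female B6, 17.8 in male CAST and 16.8 in female CAST.

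The local background was not flat. Above the genome-wide level, at least 99.998% of the local backgrounds below 60 fragments were whole multiples of 1 step per list (within 0.1 step), and 9.59% to 10.2% of those below 30 fragments were multiples of 10 steps, as 1 window size gives. The local background was high where the list's own peaks were wide and tall. Peaks were ranked by the sum of width times summit height of the list's peaks within 5 kb, the peak itself included. The median background was 59.8 to 69.0 fragments in the top 25% and 16.8 to 18.7 in the bottom 25%. Height and background were solved together, so this ranking is not independent of the background. Fold enrichment therefore moves with both the height and this background, and it is set beside the height below. Ratios of height between lists were scaled by the genome-wide background and centered on the median of all shared regions, and their 95% exact binomial intervals cover counting error only, not differences between livers.

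The 8 genes differed widely in how much of their window was marked. Slco2a1 had the most covered bases, from 8820 in female B6 to 13117 in male CAST, in a window of 99363 bases. By share of the window it was first in the CAST lists alone. In male B6 it had 11.4% against 11.7% at Slco2b1, and in female B6 8.88% against 10.8% at Slco1a4. Slco1b2 ranged from 7623 to 8601, Slco2b1 from 7066 to 8582 and Slco1a4 from 6815 to 7623, ranges that overlapped or met. Slco1c1 ranged from 3994 to 6372 and Slco1a1 from 2900 to 5654. Slco1a5 had 455 covered bases in male CAST and 400 in female CAST and none in either B6 list. Slco1a6 had none in any list. In all lists together 5.92% to 6.79% of the 697320 bases of the 8 windows were covered. Ranked by covered share of the window among all protein-coding genes, the 6 members other than Slco1a5 and Slco1a6 lay between percentile 51.3 (Slco1a1 in female CAST) and 83.2 (Slco2a1 in male CAST).

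**Figure D1:**
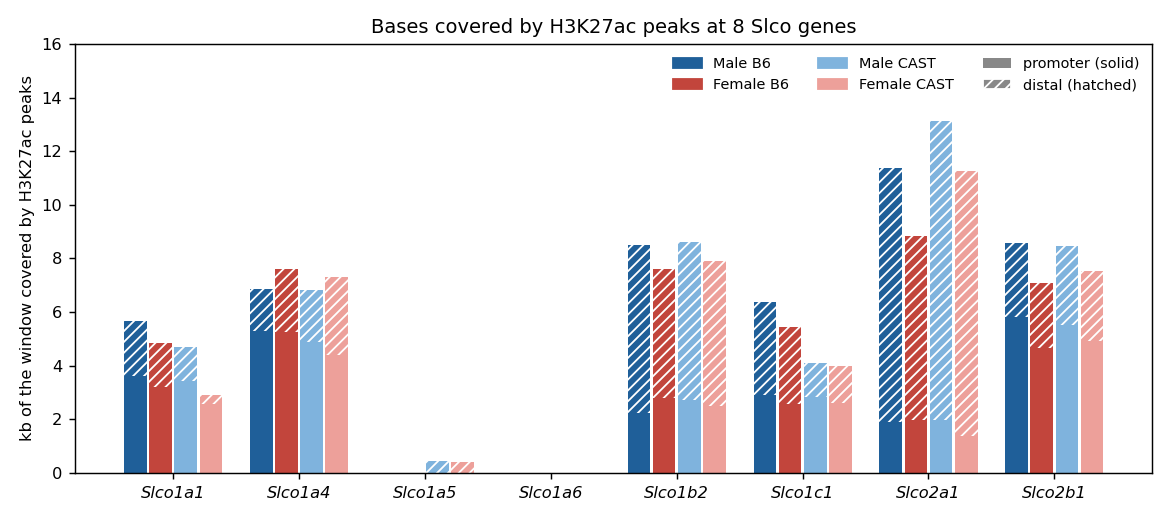
Bases covered by H3K27ac peaks (y axis, kb) in the window of each of the 8 Slco genes (x axis), with 1 bar for each list; solid parts are promoter peaks and hatched parts distal peaks. Slco1b2 and Slco2a1 have most of their covered bases away from transcript starts, Slco1a1 and Slco1a4 have most at promoters, and Slco1a6 has none.

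Promoter peaks covered 18379 to 21783 bases at the 8 genes and distal peaks 20946 to 25567. Of the 21 promoter regions 15 were called in all 4 lists, against 12 of the 61 distal regions. Together 27 of the 82 regions (32.9%) were called in all 4 lists, and 40.4% of all 119348 regions were. Another 30 regions (36.6%) were called in 1 list, against 32.4% of all regions, and these were narrow, with a median width of 267 bp against 1604 bp for the regions called in all 4 lists.

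**Figure D2:**
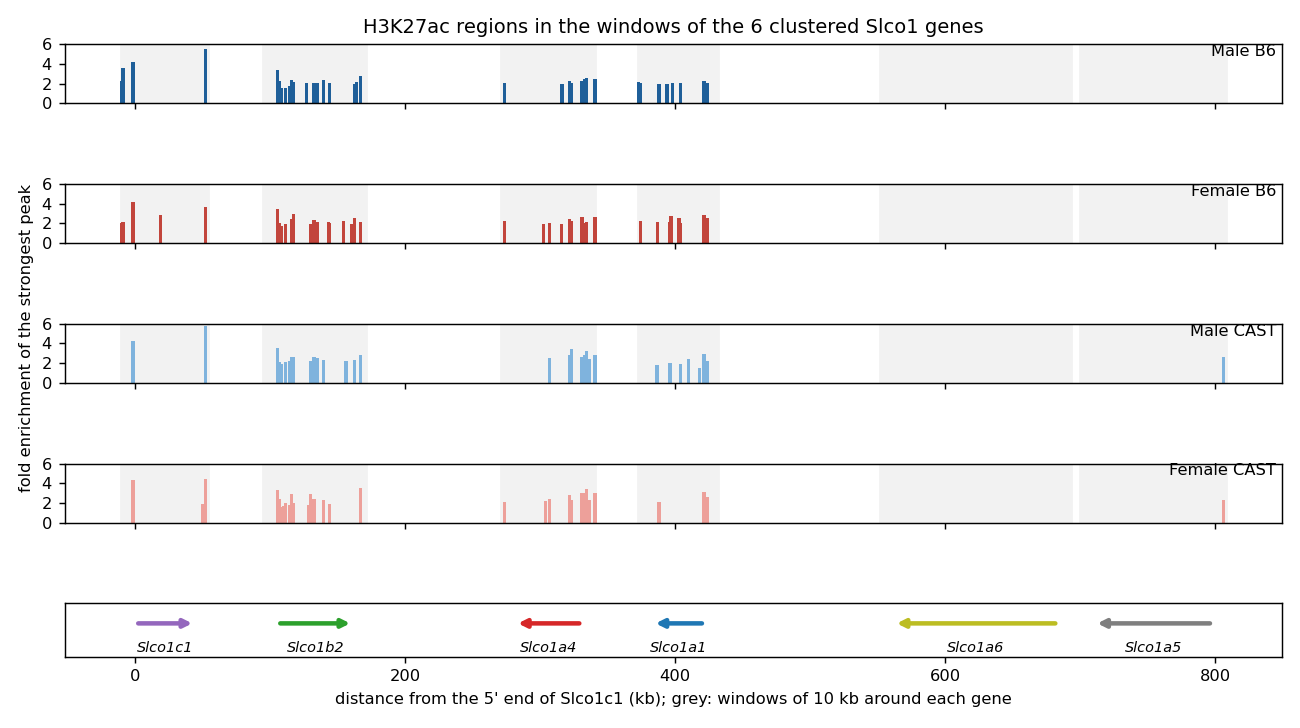
Fold enrichment of the strongest peak of each list (y axis) in the regions of the 6 clustered Slco1 genes, by distance from the 5' end of Slco1c1 (x axis, kb), with 1 row of bars for each list and arrows for the genes. Only regions within the windows (grey) are drawn; the windows from Slco1c1 to Slco1a1 hold regions in every list, and those of Slco1a6 and Slco1a5 hold 1 region, drawn in the CAST lists.

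Slco1b2, the main liver-specific carrier, had 2 promoter regions that were called in all 4 lists. The region over its start (chr6:141578014-141579532, overlapping annotated UTR) had a fold enrichment of 3.34 in male B6, 3.43 in female B6, 3.53 in male CAST and 3.31 in female CAST. Its summit reached 240 fragments in male B6, 218 in female B6, 251 in male CAST and 221 in female CAST, over local backgrounds of 71.2, 62.9, 70.4 and 66.1. The female to male ratio of height was 0.919 (0.762 to 1.11) in B6 and 1.04 (0.866 to 1.25) in CAST, so no sex difference was detectable at this depth. The other region, 1.95 kb into the gene (chr6:141579984-141580650, intron), had a fold enrichment of 2.27 in male B6, 2.06 in female B6, 2.14 in male CAST and 2.39 in female CAST. Its heights were 193, 157, 180 and 193 fragments, with a female to male ratio of 0.823 (0.663 to 1.02) in B6 and 1.27 (1.03 to 1.56) in CAST and a CAST to B6 ratio of 1.37 (1.10 to 1.70) in females. Slco1b2 also had the most regions of any member, 24, with 7 of them present in every list and 10 in a single list.

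Of the 7 Slco1b2 regions called in all 4 lists, 6 had log2 sex ratios of fold enrichment of opposite sign in the strains, as had 16 of the 27 such regions of all members. Some of the 6 rest on very small ratios, as over the start (0.03 in B6 and -0.03 in CAST). At 2 of the 6 the ratio was at least 1.2-fold in each strain. An intronic region 11.6 kb from the 5' end (chr6:141589612-141591419) had a fold enrichment of 2.18 in male B6, 2.91 in female B6, 2.67 in male CAST and 2.02 in female CAST. Its centered log2 ratio of female to male fold enrichment was 0.41 in B6 and -0.33 in CAST. The heights were 143, 163, 168 and 111 fragments over local backgrounds of 65.1, 55.3, 62.3 and 54.4, and the female to male ratio of height was 1.15 (0.916 to 1.45) in B6 and 0.782 (0.610 to 0.9999) in CAST, the upper bound lying just below 1. A region 4.46 kb downstream of the gene (chr6:141639630-141640253) had 2.74, 2.13, 2.82 and 3.48 in the same order of lists, with log2 ratios of -0.37 and 0.37. At this second region the local background was at the genome-wide level in every list, so its height gave the same picture: 52 fragments in male B6, 41 in female B6, 52 in male CAST and 61 in female CAST. The intervals of its height ratio, 0.517 to 1.23 in B6 and 0.943 to 2.05 in CAST, each included 1.

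Slco1a1, the male-predominant uptake carrier, had a wide promoter region (chr6:141892933-141896135, 3203 bp) that lay over its 5' end and overlapped UTR and coding exon sequence. The fold enrichment there was 2.25 in male B6, 2.88 in female B6, 2.98 in male CAST and 3.16 in female CAST. By this measure the female list was the higher one in each strain. The summit height gave the opposite order: 242 fragments in male B6 and 199 in female B6, 275 in male CAST and 214 in female CAST. The local background was 107 fragments in male B6 and 68.4 in female B6, and 91.6 in male CAST and 67.1 in female CAST. The male lists thus had both the higher summit and the higher local background, and the lower quotient of the 2 values. The female to male ratio of height was 0.832 (0.686 to 1.01) in B6 and 0.921 (0.767 to 1.11) in CAST, intervals that include 1.

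The second promoter region of Slco1a1 lay 0.824 kb upstream (chr6:141896307-141896974), and its central sequence is printed above. Fold enrichment was 2.02 in male B6 and 2.59 in female B6, and 2.23 in male CAST and 2.62 in female CAST. The heights were 192 and 166 fragments in B6 and 191 and 159 in CAST, male before female. Scaled and centered, the female to male ratio of height was 0.875 (0.707 to 1.08) in B6 and 0.985 (0.793 to 1.22) in CAST, so no difference in height was detectable at this depth. Here too the local background was higher in males, 94.5 against 63.4 fragments in B6 and 84.9 against 60.2 in CAST.

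Away from its promoter Slco1a1 had many weak peaks. Of its 13 distal regions 9 were called in 1 list and none in all 4, and the highest fold enrichment among distal peaks was 2.20 in male B6, 2.74 in female B6, 2.40 in male CAST and 2.08 in female CAST. Just outside the 10 kb window, 2 regions that were not counted lay 12.1 and 14.7 kb upstream of the gene, both in all 4 lists, with fold enrichments of 3.33 to 4.16. The nearest uncounted region, 10.5 kb downstream, was in the 2 male lists with 2.06 and 2.15, and the counted region closest to the limit, 9.76 kb downstream, was in male B6 with 2.20.

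Slco1a4, the female-predominant uptake carrier, was the only member with more covered bases in the female list of each strain, 7623 against 6870 in B6 and 7305 against 6815 in CAST, ratios far under 1.5. The region over its start (chr6:141802792-141805406) had a fold enrichment of 2.29 in male B6, 2.60 in female B6, 2.60 in male CAST and 3.04 in female CAST. Its summit height was 181 fragments in male B6, 229 in female B6, 156 in male CAST and 190 in female CAST, over local backgrounds of 78.5, 87.5, 59.4 and 61.8. At this region both measures were higher in the female list of each strain. The female to male ratio of height was 1.28 (1.05 to 1.56) in B6 and 1.44 (1.16 to 1.79) in CAST. The adjoining region 0.991 kb upstream of Slco1a4 (chr6:141805711-141806373) did not share the direction in B6. Its fold enrichment was 2.41 in male B6, 2.03 in female B6, 2.88 in male CAST and 2.98 in female CAST, and the female to male ratio of height was 0.926 (0.748 to 1.14) in B6 and 1.29 (1.04 to 1.61) in CAST.

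Upstream of Slco1a4 the regions were unlike in their ratios between the strains. The one 8.17 kb upstream (chr6:141812890-141814493) had a CAST to B6 ratio of height of 0.996 (0.826 to 1.2) in males and 1.04 (0.856 to 1.26) in females, with log2 ratios of fold enrichment of 0.13 and 0.17. The region 1.87 kb upstream (chr6:141806591-141807796) had a fold enrichment of 2.58 in male B6, 2.11 in female B6, 3.19 in male CAST and 3.42 in female CAST. In fold enrichment both CAST lists were above both B6 lists. The centered log2 ratio of CAST to B6 was 0.68 in females and 0.22 in males, and that of female to male was -0.30 in B6 and 0.16 in CAST. In heights, which were 194, 167, 177 and 198 fragments in the same order of lists, the female CAST to B6 ratio was 1.32 (1.07 to 1.63) and that in males 0.862 (0.699 to 1.06). The local background was 74.7 and 78.7 fragments in B6 and 54.8 and 57.2 in CAST. An intronic region near the inner starts of Slco1a4 (chr6:141795684-141796847) had 2.07, 2.24, 3.48 and 2.27, so male CAST stood above the other 3 lists, with a log2 ratio to male B6 of 0.66. Its heights were 53, 74, 83 and 57 fragments over local backgrounds of 25.1, 32.5, 23.2 and 24.6, and by height the ratio of 1.48 (1.04 to 2.13) was under 1.5-fold.

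**Figure D3:**
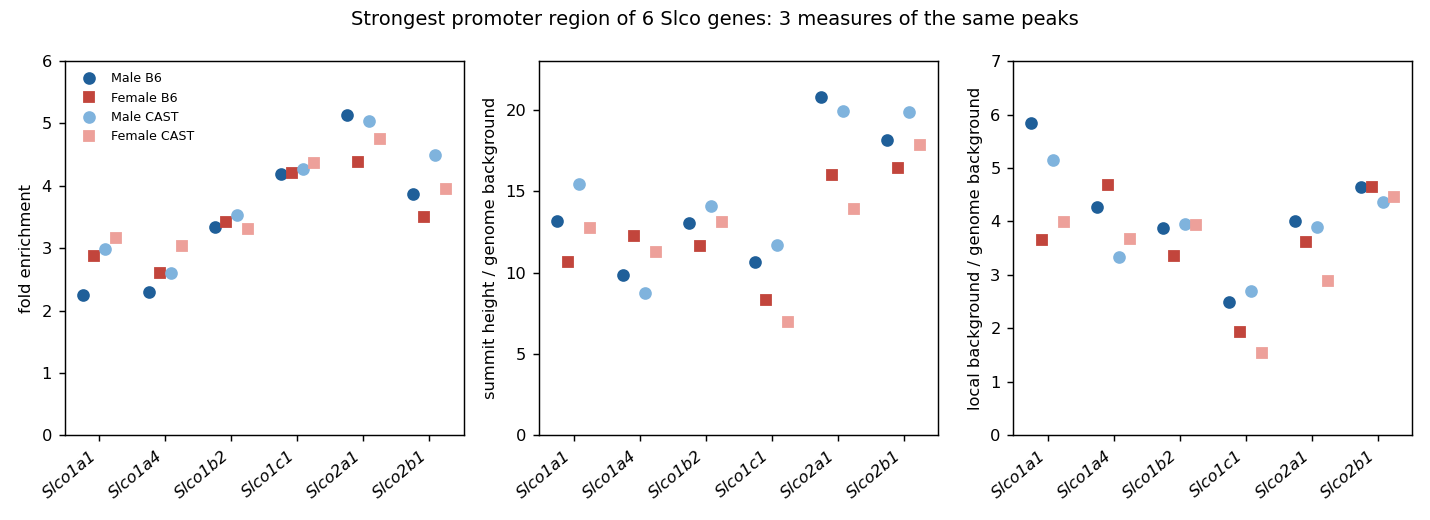
Strongest region over a transcript start of 6 Slco genes (x axis) in the 4 lists: fold enrichment (left), summit height divided by the genome-wide background of the list (middle) and local background divided by it (right). Slco1a1 has higher fold enrichment in females but higher summits and local backgrounds in males, Slco1a4 has higher values of all 3 measures in the female list of each strain, and Slco2a1 has its highest summits in males; circles are male and squares female lists.

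Slco2b1, the broadly expressed carrier, had 4 promoter regions that were called in all 4 lists. Its tallest region in every list lay over an inner start, 14.6 kb into the gene (chr7:106843456-106845258), with a fold enrichment of 3.88 in male B6, 3.50 in female B6, 4.49 in male CAST and 3.95 in female CAST. Heights there were 333, 307, 353 and 300 fragments over local backgrounds of 85.2, 86.9, 77.8 and 75.2, and the female to male ratios of 0.933 (0.796 to 1.09) in B6 and 1.01 (0.860 to 1.18) in CAST included 1. The region at the outermost start (chr7:106858701-106859754) was lower in height, with 94, 82, 96 and 100 fragments in the same order. Its fold enrichments of 3.37, 2.87, 3.72 and 4.05 were closer to those of the inner region and in female CAST above it. Each list had 8 peaks at Slco2b1, and 5 of its 9 regions were called in all 4 lists, the largest share among the 8 genes (55.6%).

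Slco2a1, the prostaglandin transporter, had the promoter with the highest fold enrichment among the 8 genes in every list. The region over its start (chr9:102909773-102911818) had a fold enrichment of 5.14 in male B6, 4.38 in female B6, 5.04 in male CAST and 4.75 in female CAST. Its summit reached 382 fragments in male B6, 299 in female B6, 354 in male CAST and 234 in female CAST. The local background was also higher in males, 73.6 against 67.5 fragments in B6 and 69.4 against 48.5 in CAST. By height it was the tallest of the 8 in male B6 and level with the inner promoter of Slco2b1 in male CAST (354 against 353 fragments). In the female lists the inner promoter of Slco2b1 was taller. The male list was the higher in both strains, and the female to male ratio was 0.792 (0.679 to 0.924) in B6 and 0.782 (0.660 to 0.926) in CAST. In fold enrichment the centered log2 ratio was -0.24 in B6 and -0.02 in CAST. The 200 bases upstream of its start had 63.5% G and C, against 36.5% to 54.0% at the other 7 genes.

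At Slco2a1 the CAST lists had more peaks. The lists held 9 peaks in male B6, 6 in female B6, 14 in male CAST and 15 in female CAST, the widest difference between strains among the 8 genes. Part of this was splitting of shared regions: chr9:102934174-102936624 held 1 peak in each B6 list, 2 in male CAST and 3 in female CAST. Counted as regions, 10 were called in either sex of B6 and 12 in either sex of CAST, and 5 and 10 in both sexes. The 3 CAST-only regions, called in both CAST lists and in neither B6 list, lay in introns 7.47, 12.7 and 29.8 kb from the start. The last of them (chr9:102940648-102941509) had 150 fragments in male CAST and 143 in female CAST. A region between them that all lists shared (chr9:102934174-102936624) had 82 fragments in male B6, 96 in female B6, 152 in male CAST and 126 in female CAST, a CAST to B6 ratio of 1.75 (1.33 to 2.32) in males and 1.46 (1.11 to 1.92) in females. In fold enrichment this region reached no 1.5-fold ratio, with log2 ratios of 0.32 and -0.06, and its local background was 36.1 and 32.7 fragments in B6 and 50.5 and 44.6 in CAST.

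Slco1c1, the thyroxine transporter of brain capillaries, had a marked promoter in liver. The region over its start (chr6:141470273-141473190, 2918 bp) had a fold enrichment of 4.19 in male B6, 4.20 in female B6, 4.28 in male CAST and 4.36 in female CAST, nearly level over the lists. Its summit height was not level: 195 fragments in male B6, 155 in female B6, 208 in male CAST and 117 in female CAST. The female to male ratio of height was 0.804 (0.647 to 0.998) in B6 and 0.666 (0.526 to 0.839) in CAST. The local background differed in the same direction, with 45.7 and 36.1 fragments in B6 and 47.9 and 26.1 in CAST, male before female.

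The largest sex difference in B6 of a region called in all 4 lists lay 5.87 kb downstream of Slco1c1 (chr6:141524106-141526347), between that gene and Slco1b2. Its fold enrichment was 5.47 in male B6, 3.65 in female B6, 5.75 in male CAST and 4.43 in female CAST, the male list being the higher in each strain. The centered log2 ratio of female to male was -0.59 in B6 and -0.31 in CAST. Its local background was at or near the genome-wide level in every list, so the heights of 117, 71, 107 and 78 fragments followed the fold enrichment, with ratios of 0.614 (0.451 to 0.832) in B6 and 0.863 (0.636 to 1.17) in CAST. In the 200 bases at its center, printed above, no motif of the set was found. Upstream, 8.42 kb before Slco1c1 (chr6:141463965-141464489), a region of the B6 lists had 95 fragments in males and 46 in females (ratio 0.490, 0.337 to 0.704), and no CAST peak overlapped it.

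**Figure D4:**
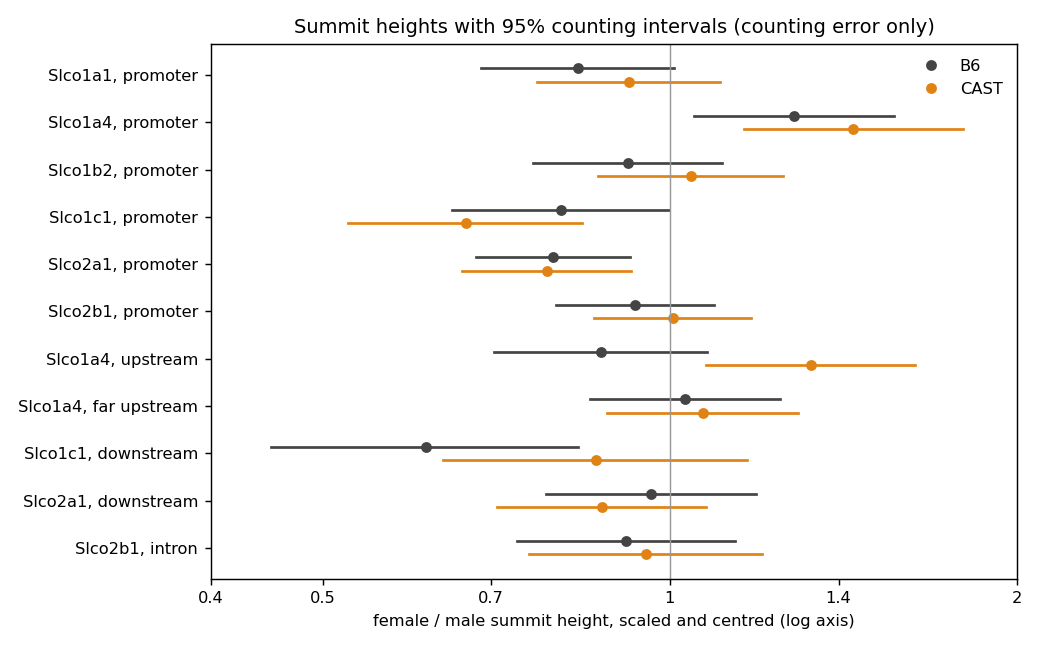
Female to male ratio of summit height (x axis, log scale, scaled by genome-wide background and centered) in B6 and CAST for 11 regions of the Slco genes; points are ratios and lines their 95% exact binomial intervals, which cover counting error only. The intervals of the Slco1a4 promoter lie above 1 and those of the Slco2a1 promoter below 1 in both strains, and those of the regions over the starts of Slco1a1 and Slco1b2 include 1.

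Slco1a5 and Slco1a6, the members of the cluster furthest from Slco1c1, were almost without peaks. At Slco1a6 no peak was listed in its window of 142761 bases in any list. At Slco1a5 the 1 region (chr6:142278783-142279292), 7.28 kb upstream, had a fold enrichment of 2.66 with 49 fragments in male CAST and 2.36 with 41 fragments in female CAST, and it was listed in neither B6 list. A gene without a peak was not rare: 26.1% to 27.5% of protein-coding genes had none in a list. Because the authors kept reads that mapped to 1 place, the share of 50-base words that occur once in the genome was computed for each window. It was 78.1% for Slco1a6 and 88.8% for Slco1a5, and 92.0% to 98.9% for the other 6. The 2 genes almost without peaks thus had the 2 lowest shares. The words were counted in mm9, and the part of unique mapping in the missing peaks was not tested. No number was missing from the running peak numbers in the windows of the 8 genes.

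Read as ratios of covered bases with 500 bp added to both lists, few members passed 1.5-fold. Between the sexes in B6 none of 6 members did, where 8.75% of 16580 protein-coding genes did in either direction. In CAST 1 of 7 did, Slco1a1, with 4715 bases in males and 2900 in females (log2 ratio -0.62), against 9.21% of genes. Between the strains 1 of 7 passed in males (13.7% of genes) and 2 of 7 in females (18% of genes). Slco1a5 passed in both sexes, since it was listed at 0 in B6, and its ratio rests on the 500 bp added. Slco1a1 passed in females, with 4836 bases in B6 and 2900 in CAST (log2 ratio -0.65), and Slco1c1 in males stayed just inside the limit, with 6372 and 4117 bases (log2 ratio -0.57). That value of Slco1c1 was -0.62 with 100 bp added in place of 500 and 0.02 with no flank. The calls of Slco1a1 were lost when the windows were widened to 20 kb, with log2 ratios of -0.39 between the sexes in CAST and -0.43 between the strains in females. The median log2 ratio of female to male over the members was -0.21 in B6 and -0.11 in CAST, and -0.04 and -0.10 over all genes.

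Among regions called in either sex of a strain, sex-only regions of the members were counted beside the shares of all regions, without a test. In B6 16 of 66 regions were called in males alone (24.2%, against 17.4% of all regions) and 14 in females alone (21.2%, against 17.5%). Of these, 15 of the male-only and 12 of the female-only regions were distal, and the share among all distal regions was not computed. In CAST 12 of 60 were male-only (against 21.5% of all regions) and 9 female-only (15.0%, against 14.1%). By score most of these regions ranked low, with median score percentiles of 7.35 to 17 within their lists. The highest-ranked in B6 lay in introns of Slco2a1 (male-only, percentile 42.5, 61 fragments) and Slco1c1 (female-only, 45.7, 55 fragments). In CAST they lay in Slco1b2, at chr6:141581296-141581784 (male-only, 52.4) and chr6:141582844-141583078 (female-only, 41.2). Their summits were tall, 175 and 166 fragments, over local backgrounds of 91.7 and 96.8. At the members 1 region, at the 3' side of Slco2b1, was male-only in both strains, none was female-only in both, and 3 changed sex between the strains. The shares of all regions were not computed for these joint counts, so they are not a trait of the members. Among regions called in both sexes of a strain, 3 of 36 were B6-only (8.33%, against 8.40%), of which 2 lay upstream of Slco1c1 and 1 downstream of Slco1a1. For CAST 5 of 39 were CAST-only (12.8%, against 11.8%), of which 3 lay in Slco2a1, 1 upstream of Slco1a4 and 1 at Slco1a5. No promoter region was strain-only.

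In regions called in both lists, the ratio of fold enrichment passed 1.5-fold at 2 of 36 member regions between the sexes in B6 (1.35% of all regions did) and at 0 of 39 in CAST (1.61%). It passed at 1 of 37 between males of the strains (3.17%) and at 2 of 31 between females (4.29%). The 2 in B6 were the regions upstream and downstream of Slco1c1, and those between females were the Slco1a4 region 1.87 kb upstream and the downstream region of Slco1b2. With summit height, an alternative chosen after the data were seen, the counts were 2 of 36 in B6 (4.44% of all regions) and 1 of 39 in CAST (5.33%), the Slco1c1 promoter. Between the strains they were 1 of 37 in males (9.14%), inside Slco2a1, and 2 of 31 in females (12.9%). The 2 in females were the downstream region of Slco1b2 and an intronic region of Slco1b2 24.6 kb from its 5' end, classed as promoter for an inner start (log2 ratio 0.67), while the Slco1a4 region 1.87 kb upstream (0.40) did not pass. Among the 27 regions called in all 4 lists, the sex ratio had the same direction in both strains at 11 by fold enrichment and at 13 by height. The counting interval of the female to male ratio of height lay above 1 at 1 and below 1 at 4 of the 36 member regions shared in B6, and above 1 at 5 and below 1 at 3 of the 39 in CAST. That of the CAST to B6 ratio lay above 1 at 3 and below 1 at 0 of 37 in males, and above 1 at 9 and below 1 at 1 of 31 in females. Height and fold enrichment pointed in opposite directions at 9 of 36 and 9 of 39 member regions between the sexes, and at 14 of 37 and 11 of 31 between the strains. The shares of all regions were not computed for these counts of direction and of intervals. A direction was counted however small the ratio was. The median log2 ratio of height over all shared regions, removed by centering, was -0.04 for female to male in B6, -0.16 in CAST, 0.13 for CAST to B6 in males and 0.00 in females.

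**Figure D5:**
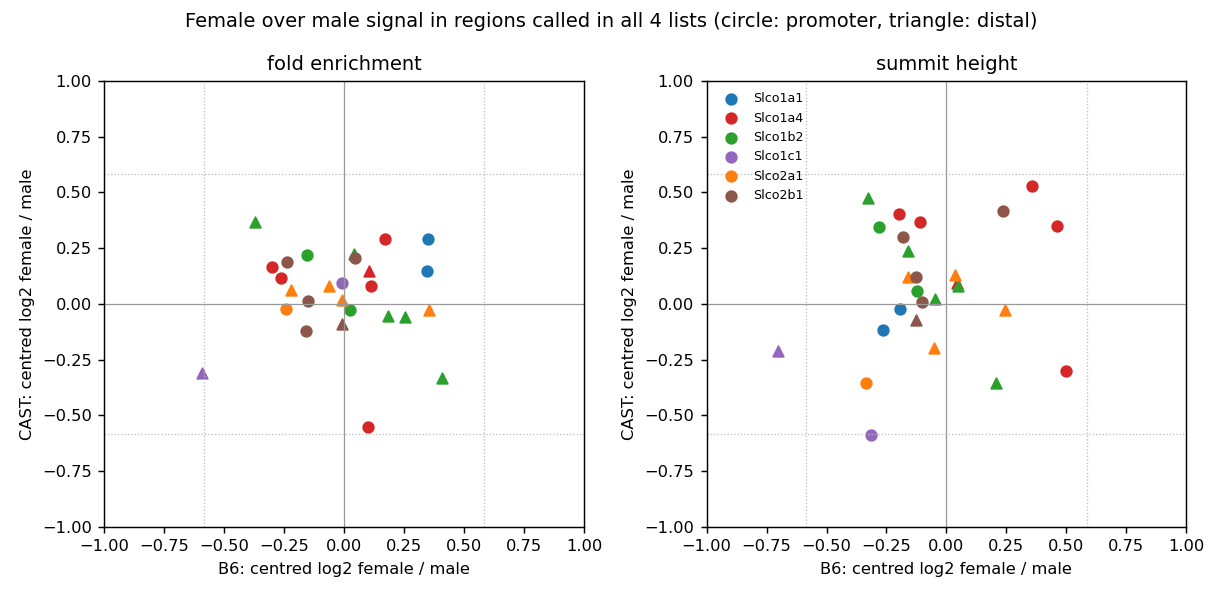
Centered log2 ratio of female to male signal in B6 (x axis) and CAST (y axis) for the 27 regions called in all 4 lists, by fold enrichment (left) and by summit height (right), colored by gene; circles are promoter and triangles distal regions, and dotted lines mark 1.5-fold. The direction was the same in both strains at 11 regions by fold enrichment and at 13 by height, and the Slco1c1 downstream region lies furthest to the left in each plot.

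Of the 7 other Slco genes, 4 (Slco5a1, Slco6b1, Slco6c1 and Slco6d1) had no peak in any list. Slco3a1 and Slco4a1 had peaks in all lists, with highest fold enrichments of 3.76 to 5.09 and 3.79 to 5.09. Slco4c1 had 1 peak in each list but female CAST. With no peak there, its covered bases passed 1.5-fold downward between the sexes in CAST (log2 ratio -0.95) and between females of the strains (-1.25). Between the strains Slco4a1 passed upward in males (0.67) and Slco3a1 in females (0.68). A list of 10 other hepatocyte transporters of bile acids, organic anions and drugs, Slc10a1, Slc22a7, Abcb11, Abcb4, Abcc2, Abcc3, Abcc4, Abcg2, Osta and Ostb, had a peak at every gene in at least 1 list. Female to male ratios of covered bases passed 1.5-fold downward at 2 of them in B6 (Abcg2 and Osta) and at 1 in CAST (Abcg2) and upward at none. Abcg2, an efflux carrier, had 8362 covered bases in male B6 and 4739 in female B6, and 10840 in male CAST and 4982 in female CAST. Osta had 1 peak of 361 bases in male B6 and was listed at 0 in female B6 and male CAST. It was also the 1 gene of this list that passed between the strains, downward in males (log2 ratio -0.78).

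For the members that passed 1.5-fold, the protein-coding genes at least 1 Mb away with the most similar covered bases over the 4 lists were named by Euclidean distance of log2 values. For Slco1a1 these were Optc (distance 0.126), Tcf7 (0.132) and Pepd (0.145), and 437 genes lay within 0.5. For Slco1a5 they were Fgfr1op (0.0596), Gm10006 (0.0618) and Oxct2a (0.0876), and 111 genes lay within 0.5.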

How the data were processed

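H3K27ac ChIP-seq was done on 20 livers, with 4 input libraries. The authors aligned reads with Bowtie2 and kept uniquely mapped reads. For CAST livers the target was a custom CAST genome, and positions were then converted to mm9. They called peaks with MACS2 and deposited 1 list per group, pooled over its livers, with a score, a fold enrichment (a ratio to local background), −log10 p-values and −log10 q-values, and another column for summit position. The methods name input as control. Whether the local background came from input or from the H3K27ac library was not settled here.

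Heights and backgrounds were solved from the deposited fold enrichment and −log10 p-value. Covered bases, shared regions (1 bp overlap) and ratios were computed with Python 3.11.15, pandas 2.3.3 and scipy 1.17.1 and tested on simulated data. A ratio was called at 1.5-fold, after 500 bp was added for covered bases or after centering for signal. The peak lists give no read depth per library. Genes named are all members, and within them the regions with the largest ratios and the highest-ranked region of each strain-only or sex-only class. Other regions were chosen after their values were seen. The members and lists were chosen with earlier results of these data known. Alternatives changed the flank, peak threshold, bases added, promoter distance, overlap and centering. A gene of the transporter list as first drawn up was left out and is not reported here.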

Additional observations from a re-analysis of the deposited data

Results flagged for a closer look

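At 2 regions of Slco1b2 the female to male ratio of fold enrichment had opposite directions in B6 and CAST, with at least 1.2-fold in each strain. At the intronic region 11.6 kb from the 5' end, the CAST log2 ratio of fold enrichment minus the B6 ratio was -0.7411. By summit height its B6 ratio was 1.15, under 1.2-fold. At the region 4.46 kb downstream, this difference was 0.7393. Each strain and sex had 1 pooled list, so the difference was not tested.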

How the results depend on the processing

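Of the members called by covered bases, the 1 between the sexes in CAST (Slco1a1) became 0 with a −log10 q of at least 2, fold enrichment of at least 2, lists of equal length, a 20 kb flank or 2000 bp added. The 2 between females of the strains became 1 with a 20 kb flank or fold enrichment of at least 2 and 0 with 2000 bp, and were 3 with no flank, where Slco1c1 (log2 ratio -0.83) and Slco2a1 (0.74) joined Slco1a1 and Slco1a5 had no peak. The 1 between males became 2 with 100 bp, 0 with 2000 bp and 0 with no flank. The 0 in B6 became 1 with no flank. B6-only regions went from 3 to 5 with a 20 kb flank, fold enrichment of at least 2 or lists of equal length, and to 0 with no flank. CAST-only regions went from 5 to 9 with fold enrichment of at least 2 and to 3 with no flank. With that fold enrichment, B6 male-only regions went from 16 to 7 and CAST female-only from 9 to 4. With a reciprocal overlap of 50%, sex-only regions were 27 (male) and 29 (female) in B6 and 22 and 23 in CAST. Regions called by signal became 0 with no flank in B6 and between females, 1 in B6 and 1 in CAST without centering, and 1 in CAST by summit height, chosen after the data were seen. The cause was not tested. No called ratio changed sign under these alternatives, but ratios under 1.5-fold did: with no flank, Slco1c1 went from -0.21 to 0.43 between the sexes in B6 and from -0.57 to 0.02 between males, and small ratios between the strains of Slco1a4, Slco1b2 and Slco2b1 also changed sign. Libraries could not be left out, and the peak lists give no depth per liver. No paired analysis was possible because each list pools its livers.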
